A study of Drosophila melanogaster with 6 samples.

Results

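The genes described here encode the translation initiation factors of Drosophila, taken as all genes whose current symbol starts with eIF. The gene table holds 44 of them, and 40 have at least 1 probe set that the array annotation assigns to exactly 1 gene, out of 11982 such genes on the array. These 40 are the single measured gene of the eIF1 and eIF1A class (eIF1), 1 of 3 eIF2 subunits (eIF2beta), 5 of 5 eIF2B subunits, 16 of 16 eIF3 genes, 12 of 13 eIF4 genes, eIF5, eIF5B, eIF6, eIF2A and eIF2D. The genes eIF1A, eIF2alpha, eIF2gamma and eIF4H1 have no such probe set in the annotation and were not analysed here. Where several probe sets served 1 gene (eIF4B and eIF4EHP), the one of highest mean log2 signal was taken for it.

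RNA came from S2 cells, a Drosophila line from embryos that resembles the insect's blood cells, grown in Schneider's medium with insulin and fetal bovine serum. The cells received 0.1 mM protocatechuic aldehyde (PA), a small polyphenol, for 2 h in 3 samples, or vehicle in the other 3, and each sample was hybridised to its own Affymetrix GeneChip Drosophila genome 2.0 array. The labels do not say that the samples of a group were separate cultures. The p-values therefore cover the spread between these 6 samples alone, and that spread may be technical. The deposited values are MAS5 signals, linear intensities that the authors' software scaled to the same trimmed mean on every array, so the data carry relative levels only, and fewer cells of a type cannot be told apart from less RNA per cell.

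Initiation factors bring the initiator tRNA, the mRNA cap and the small ribosomal subunit together and place the ribosome on a start codon. The supply of eIF2 bound to GTP and the access of the cap-binding protein eIF4E to its scaffold eIF4G are the usual points of control, the first through phosphorylation of eIF2alpha and the second through the repressor 4E-BP. Much of that control acts on the proteins and would not be seen in transcript signals.

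Marker genes fitted the labelled cell line: all 8 measured hemocyte markers lay in the upper 50% of signal over the probe sets tested, among them Hml, srp, He and NimC1. Their summed signal was 35173 to 36379 with vehicle and 35937 to 37876 with PA, and 2 were called higher and 1 lower. Of 14 measured markers of testis and germline, neurons, muscle and fat body, 10 lay in the lower 50% and none was called. The brightest of these, the neuron marker elav, lay at percentile 66.0, just above the dimmest hemocyte marker, Pxn, at percentile 65.0. The 6 measured testis and germline markers summed to 107 to 151 with vehicle and 104 to 126 with PA.

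After the 2 h treatment, the 31 initiation factor genes above the 75th percentile of signal had log2 changes between -0.27 and 0.15, and the 9 dimmer ones were measured too loosely to show changes of that size. Of the 40 measured genes, 5 were higher with PA at an adjusted p under 0.05 from limma (eIF3d1, eIF3f1, eIF3g1, eIF3l and eIF4A), 2 were lower (eIF4EHP and eIF4G2) and 33 did not pass. Over all 18769 probe sets tested on the array, 2.29% were called higher and 2.82% lower. The 5 rises amounted to 8.95% to 11.1%, while eIF4EHP fell by 17.1% and eIF4G2 fell by 12.8%. The median log2 change over the 40 genes was 0.06, beside -0.01 over all probe sets tested, and 27 of the 40 changes were above 0. With the medians of all arrays set equal, the median over the 40 genes turned to -0.0215 and that over all probe sets was -0.09. On 15 genes every PA array lay above every vehicle array and on 2 every PA array lay below, where all probe sets gave 9.61% and 11.9%. With 3 arrays against 3, the 2-sided exact permutation test cannot give a p below 0.1 for any single gene, so the calls rest on the variance that limma shares across probe sets.

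**Figure D1:**
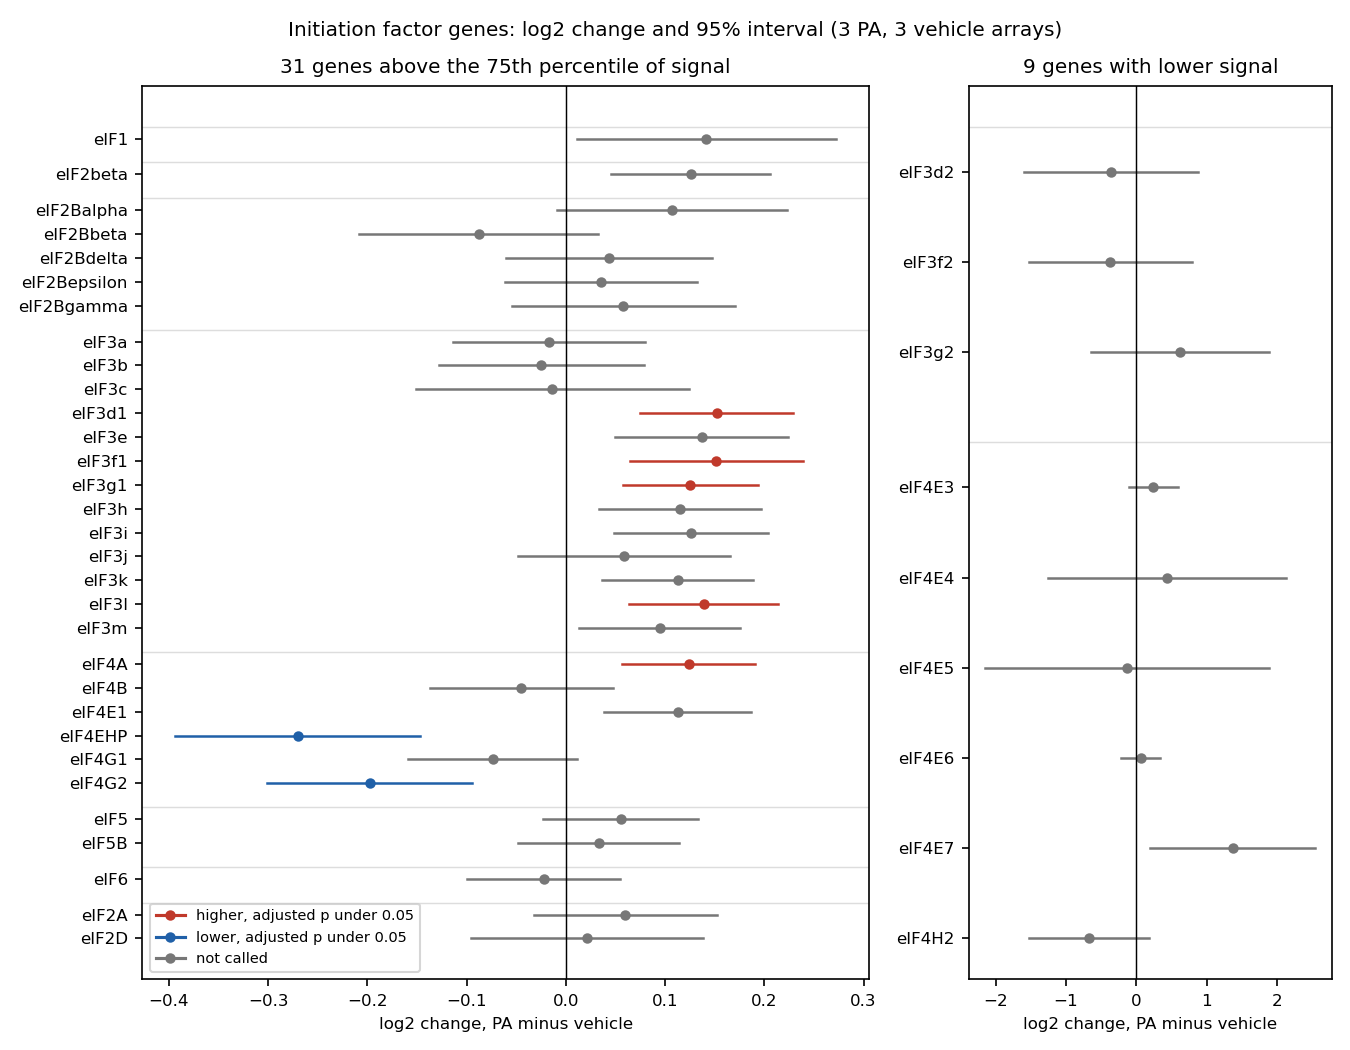
Log2 change (PA minus vehicle, x axis) with its 95% interval for each measured initiation factor gene (y axis, grouped by complex), from 3 PA and 3 vehicle arrays. The left panel shows the 31 genes above the 75th percentile of signal, whose changes lie between -0.27 and 0.15, with red for the 5 called higher and blue for the 2 called lower, and the right panel shows the 9 genes of lower signal on a wider axis.

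The rises of the bright initiation factors were close to those of other bright probe sets. Among the 939 probe sets above the 95th percentile of mean signal, the median log2 change was 0.09, 28.1% were called higher, and every PA array lay above every vehicle array for 55.9%. The 20 initiation factor genes in that range had a median of 0.11, 5 were called higher, and 12 had every PA array above every vehicle array. Between the 75th and the 90th percentile all 2816 probe sets had a median of -0.06, with 11% called lower, and the 8 initiation factors there had a median of 0.03, with 2 called lower. The share of initiation factors called higher was thus close to that of probe sets of like brightness. Quantile normalization, which gives all arrays the same distribution of signals, left medians of 0.0019 over the brightest probe sets and 0.02 for the 20 initiation factors among them. Between the 75th and the 90th percentile it left -0.0047 over all probe sets and 0.08 for the 8 initiation factors. No initiation factor was then called by limma, while over all probe sets 1.27% were called higher and 1.42% lower. At an unadjusted p under 0.05 from limma the quantile-normalized signals gave 5 of the 40 initiation factors higher and 3 lower. Of all 18769 probe sets, 1231 were higher and 1366 lower at that threshold. Cyclic loess normalization, a second way of making the arrays alike at each brightness, also left no initiation factor called. At an unadjusted p under 0.05 it gave 6 of them higher and 3 lower, beside 1261 and 1364 of all probe sets. The part of brightness in the rises was not tested. These brightness ranges were chosen after the values were seen.

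**Figure D2:**
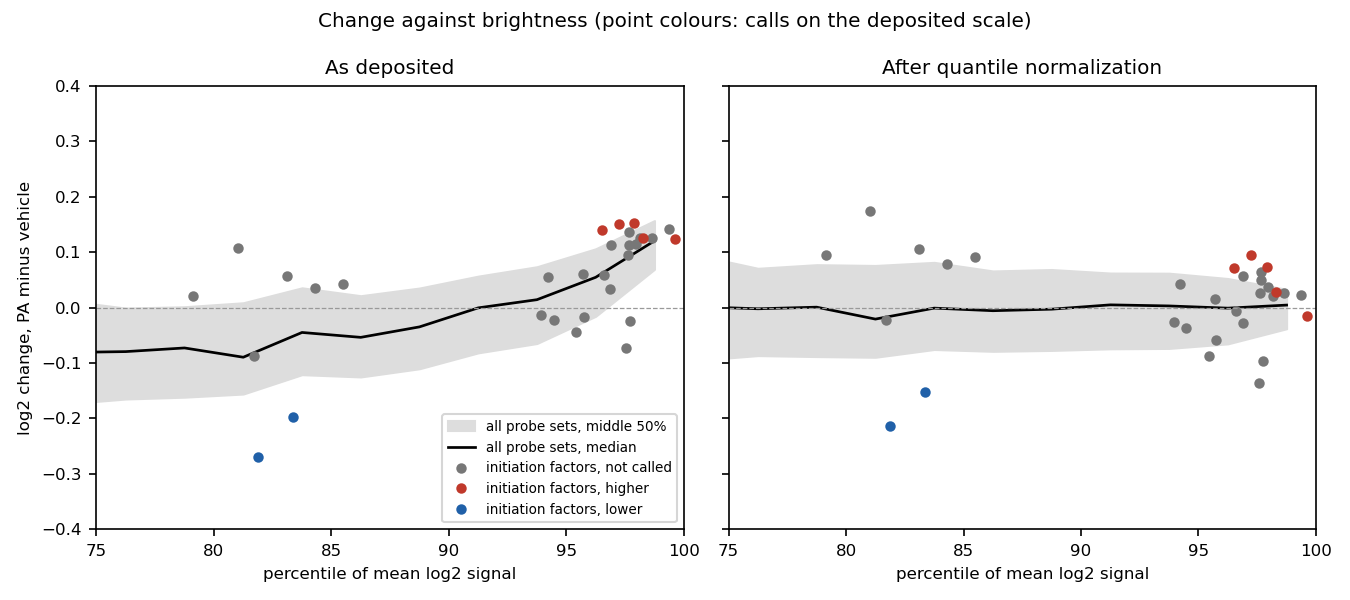
Log2 change (PA minus vehicle, y axis) against the percentile of mean log2 signal (x axis) for initiation factor genes above the 75th percentile (points), with the median (line) and the middle 50% (grey) of all probe sets tested. As deposited (left) the line climbs from below 0 to about the level of the red points, and after quantile normalization (right) it stays near 0 and the 5 red points lie between -0.0155 and 0.095.

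The complex eIF3, which binds the small ribosomal subunit and holds the other factors in place, gave 4 of the 5 rises. Its 13 bright genes lay between percentiles 93.9 and 98.6 of signal. All 4 called genes lay above the 95th percentile, where 28.1% of all probe sets were called higher. The cap-binding subunit gene eIF3d1 had signals of 6467, 6426 and 6842 on the vehicle arrays and 7192, 7436 and 7291 on the PA arrays. These groups did not overlap, and the log2 change was 0.15 (standard error 0.04, adjusted p = 0.0249). For eIF3f1 the signals were 5157, 5570 and 5739 with vehicle and 6135, 6087 and 6052 with PA, a log2 change of 0.15 (standard error 0.04, adjusted p = 0.0469), and vehicle array 1 was the lowest. The gene eIF3g1, whose product has an RNA-binding domain and sits in a module with eIF3b and eIF3i, went from 7509, 7763 and 7666 to 8353, 8316 and 8350. Its PA arrays differed from each other by far less than its vehicle arrays, and the log2 change was 0.13 (standard error 0.03, adjusted p = 0.0361). Signals of eIF3l were 4624, 4863 and 4782 with vehicle and 5167, 5318 and 5226 with PA, without overlap and with a log2 change of 0.14 (standard error 0.03, adjusted p = 0.0346). All 4 changes stayed above 0 under each of the 4 other scalings, at 0.0287 to 0.23, and all 4 kept their calls only where the 75th percentile of every array was set equal. Leaving out any 1 array ended the calls of eIF3g1 and eIF3l, and those of eIF3d1 and eIF3f1 were kept without vehicle replicate 3 alone.

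Most of the other bright eIF3 subunits had values above 0 that did not pass, and the scaffold subunits eIF3a, eIF3b and eIF3c had values close to 0. The subunits eIF3e, eIF3h, eIF3i, eIF3k and eIF3m had log2 changes of 0.09 to 0.14 and adjusted p of 0.0637 to 0.201, with every PA array above every vehicle array in all 5. Above the 95th percentile of signal, where all 5 lay, 55.9% of all probe sets had their PA arrays above in this way. The loosely bound subunit eIF3j had a log2 change of 0.06 (adjusted p = 0.647) and overlapping groups. For eIF3a, the largest scaffold subunit, the signals were 3970, 4297 and 4285 with vehicle and 4297, 4206 and 3903 with PA, a log2 change of -0.02 with a 95% interval of -0.11 to 0.08. For eIF3b and eIF3c, which form the core of the complex with eIF3a, the changes were -0.02 (interval -0.13 to 0.08) and -0.01 (interval -0.15 to 0.12). As deposited, these 3 subunits therefore lay below the other 10 bright ones, which ranged from 0.06 to 0.15. Of the 13, eIF3c and eIF3a were the dimmest (percentiles 93.9 and 95.8 of signal), while eIF3b lay at 97.7. Over all probe sets the median change was 0.0063 between percentiles 90 and 95 and 0.0897 above. After quantile normalization eIF3a, eIF3b and eIF3c had -0.0583, -0.0968 and -0.0253, and the other 10 had -0.006 to 0.095. The part of brightness in this split was not tested. The split was noticed in the values and has no test of its own. Averaged over the 13 bright eIF3 genes, the log2 signal relative to the vehicle mean was -0.04, 0.0039 and 0.04 on the vehicle arrays and 0.10, 0.11 and 0.07 on the PA arrays. The lowest PA array thus exceeded the highest vehicle array by less than the vehicle arrays differed among themselves.

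The second copies of eIF3 subunits gave only low signals in these cells. Genes eIF3d2, eIF3f2 and eIF3g2 are paralogues of eIF3d1, eIF3f1 and eIF3g1. Across all 6 arrays their signals were 11.9 to 28.5, 14.1 to 30.3 and 7.55 to 22.4. Their log2 changes of -0.36, -0.37 and 0.62 had standard errors of 0.54 to 0.59, so a change of the size seen in the bright subunits was not detectable.

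Among the genes of the cap complex eIF4F (eIF4A, eIF4E1 and eIF4G1), eIF4A alone passed. The RNA helicase gene eIF4A had signals of 17482, 17761 and 18199 with vehicle and 19594, 19129 and 19494 with PA. Its groups did not overlap and its log2 change was 0.12 (standard error 0.03, adjusted p = 0.0358), but the direction turned after quantile normalization (-0.0155) and cyclic loess normalization (-0.0045), and the call was kept without vehicle replicate 3 alone when 1 array was left out. The main cap-binding gene eIF4E1 had signals of 6432, 6169 and 6479 with vehicle and 6770, 6998 and 6861 with PA. All of its PA arrays were above all vehicle arrays, with a log2 change of 0.11 (95% interval 0.04 to 0.19) that did not pass (adjusted p = 0.0836). Both eIF4A and eIF4E1 lay above the 95th percentile of signal, where 55.9% of all probe sets had every PA array above every vehicle array. The scaffold gene eIF4G1, whose product joins eIF4E to eIF4A and eIF3, had signals of 6708, 6732 and 6417 with vehicle and 6350, 6545 and 5982 with PA. These overlapped, and the log2 change was -0.07 (95% interval -0.16 to 0.01, adjusted p = 0.387). For eIF4B, a cofactor of the helicase, 3 bright probe sets had log2 changes of -0.04, -0.0013 and -0.04 and overlapping groups, and a dim one had -0.28 with a standard error of 0.35. The other helicase cofactor measured, eIF4H2, gave signals of 19.9 to 49.0 and a log2 change of -0.67 (standard error 0.40, adjusted p = 0.454).

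The 2 falls were a cap-binding repressor and a second scaffold gene. Their probe sets lay at percentiles 81.9 (eIF4EHP) and 83.4 (eIF4G2) of signal. Between the 75th and the 90th percentile 11% of all probe sets were called lower, and 31.1% had every PA array below every vehicle array. The product of eIF4EHP binds the cap but not eIF4G and represses the translation of chosen mRNAs, such as caudal in the fly embryo. Its brighter probe set had signals of 1008, 946 and 986 on the vehicle arrays and 825, 755 and 861 on the PA arrays. All PA arrays lay below all vehicle arrays, for a log2 change of -0.27 (standard error 0.06, adjusted p = 0.015). After quantile and cyclic loess normalization the change was -0.21 and -0.22 (adjusted p = 0.068 and 0.0655). The call was kept with each array centred on its median and lost with each centred on its 75th percentile (adjusted p = 0.0702), and it was lost without vehicle replicate 1 or PA replicate 2. Its dimmer probe set did not follow. There the signals were 261, 257 and 213 with vehicle and 269, 232 and 269 with PA, which overlap, with a log2 change of 0.08 (95% interval -0.15 to 0.30). The fall of eIF4EHP is therefore a statement about the brighter probe set.

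The gene eIF4G2 encodes a relative of eIF4G1 that is known in flies for its role in spermatogenesis. With vehicle its signals were 1079, 1042 and 1100 and with PA 969, 927 and 913. These groups did not overlap, and the log2 change was -0.20 (standard error 0.05, adjusted p = 0.0297). Under the other scalings the change was -0.28 to -0.12 and no longer passed (adjusted p = 0.127 after quantile normalization), and when 1 array was left out the call was kept without PA replicate 1 alone. For eIF4G1 the quantile-normalized change was -0.14 (adjusted p = 0.116), so both scaffold genes had values below 0, and whether they differed from each other was not tested.

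**Figure D3:**
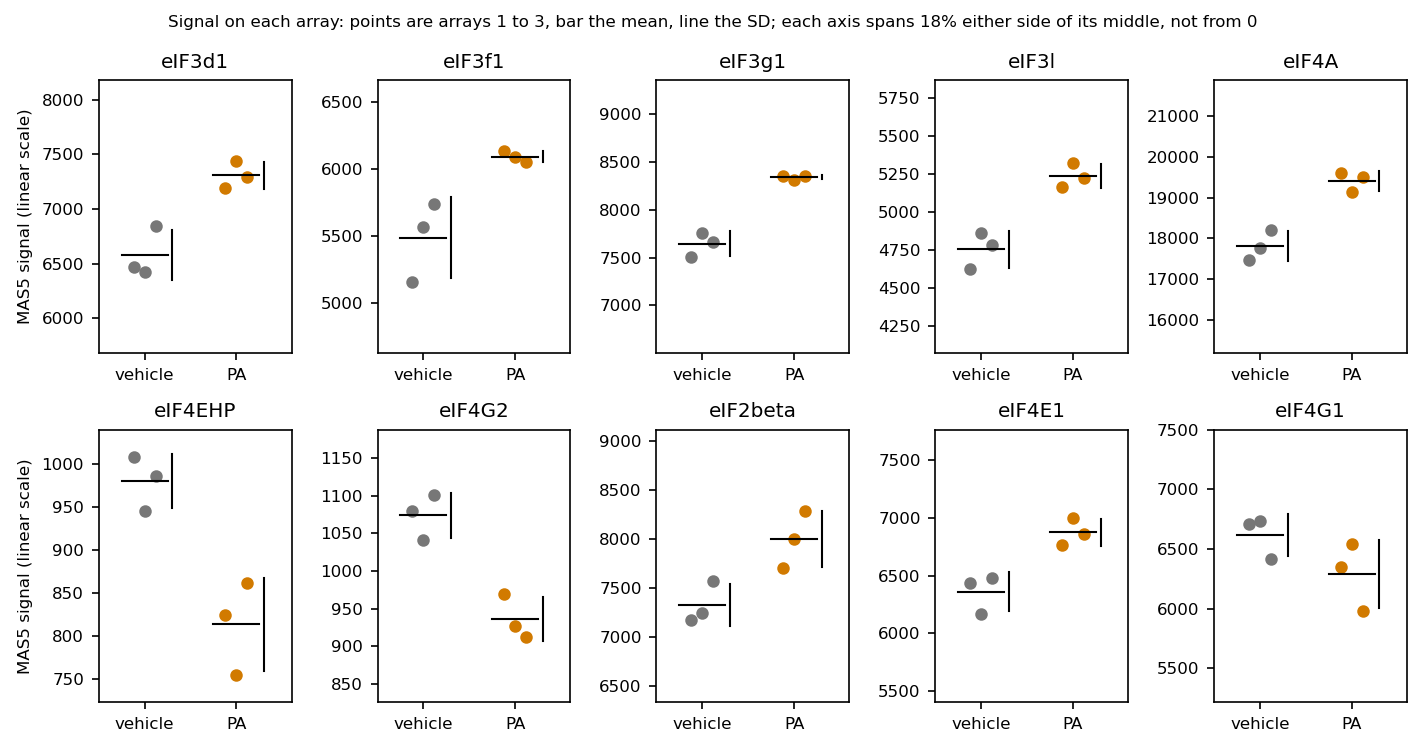
MAS5 signal (y axis, linear scale, not from 0; each axis spans 18% either side of its middle) on the 3 vehicle (grey) and 3 PA (orange) arrays for the 7 called genes and for eIF2beta, eIF4E1 and eIF4G1; horizontal bars are means and vertical lines SDs (n = 3). The groups are apart in all panels but that of eIF4G1, with mean signals of 980 and 814 for eIF4EHP and of 7646 and 8340 for eIF3g1.

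The other members of the eIF4E family, which in flies include several copies used mainly in the testis, could not be measured well. On all 6 arrays eIF4E3 had signals of 79.3 to 112 and eIF4E6 of 132 to 164. Their log2 changes were 0.24 (standard error 0.16, adjusted p = 0.531) and 0.06 (standard error 0.13, adjusted p = 0.89), and every PA array of eIF4E3 was above every vehicle array. In its brightness range 5.43% of all probe sets had their PA arrays above in this way. Signals of eIF4E4, eIF4E5 and eIF4E7 were at most 14.9, 6.89 and 1.62 on any array. The log2 change of 1.37 for eIF4E7 joins values that were all under 2 signal units (95% interval 0.19 to 2.55, adjusted p = 0.20), and eIF4E7 also has 2 probe sets that it shares with other genes and that were not used.

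Of the heterotrimer eIF2, which carries the initiator tRNA, only the beta subunit gene could be read. The signals of eIF2beta were 7168, 7246 and 7567 with vehicle and 7707, 8000 and 8278 with PA. PA arrays were above vehicle arrays without overlap, at a log2 change of 0.13 (95% interval 0.05 to 0.21) that did not pass (adjusted p = 0.0748). In its brightness range, above the 95th percentile, 55.9% of all probe sets had every PA array above every vehicle array. The exchange factor eIF2B, which reloads eIF2 with GTP and is the target that phosphorylated eIF2alpha blocks, showed no called subunit among 5. The regulatory subunit gene eIF2Balpha had the smallest p of them, with signals of 836, 808 and 761 against 832, 870 and 887, a log2 change of 0.11 and an adjusted p of 0.343. Regulatory subunits eIF2Bbeta and eIF2Bdelta had changes of -0.09 and 0.04. The catalytic subunit gene eIF2Bepsilon and its partner eIF2Bgamma had changes of 0.04 and 0.06. For all 5 the groups overlapped. Over the 5 genes the 95% intervals of the change reached from -13.5% to 16.7%.

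No gene for start codon choice, subunit joining or alternative routes passed the threshold. The start codon factor gene eIF1 had signals of 13592, 16074 and 15259 with vehicle and 18011, 16024 and 15506 with PA. PA array 1 was the highest and the other PA arrays lay inside the vehicle range, with a log2 change of 0.14 (95% interval 0.01 to 0.27, adjusted p = 0.242). For eIF5, the GTPase activator of eIF2, signals of 3116, 3136 and 3079 went to 3310, 3143 and 3245, a log2 change of 0.06 (adjusted p = 0.521) with groups that just did not overlap. In its brightness range 21% of all probe sets had every PA array above every vehicle array. The subunit joining GTPase gene eIF5B had a change of 0.03 (95% interval -0.05 to 0.11). The gene eIF6, whose product keeps the large ribosomal subunit free and also acts in its assembly, had signals of 3253, 3350 and 3333 with vehicle and 3302, 3185 and 3298 with PA. Its change was -0.02, with a 95% interval of -0.10 to 0.05. Among the factors that can deliver tRNA without eIF2, eIF2A went from 3995, 3893 and 4164 to 4259, 4352 and 3958 with overlap (log2 change 0.06, adjusted p = 0.568). The other one, eIF2D, had a log2 change of 0.02 (adjusted p = 0.911) and also overlapped.

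Some partners and regulators of the cap complex had larger changes than any of the 31 bright initiation factors. Of 11 listed genes 9 were measured, 4 rose, none fell and 5 did not pass, with a median log2 change of 0.12. Over all probe sets 2.29% were called higher and 2.82% lower, but the list was chosen with earlier results of these data known. The 9 genes lay between percentiles 78.4 and 99.6 of signal. The share of all probe sets called higher was 2.77% from the 75th to the 90th percentile, 5.33% from there to the 95th and 28.1% above. Of the 5 that did not pass, NAT1 (0.12) had every PA array above every vehicle array. The RNA helicase gene bel (-0.12) and Fmr1 (-0.13), whose product is an RNA-binding regulator of translation, had every PA array below every vehicle array. A dimmer probe set of Fmr1 had 0.17 with overlapping groups. In the brightness range of NAT1, 55.9% of all probe sets had every PA array above. In those of bel and Fmr1, 31.1% and 21% had every PA array below. Paip2, which keeps poly(A)-binding protein from its targets, had signals of 2735, 2829 and 2690 with vehicle and 4168, 4059 and 3893 with PA, and rose by a log2 change of 0.55 (standard error 0.04, adjusted p = 1.78e-06). Its groups were far apart. The kinase gene Lk6, whose product phosphorylates eIF4E, went from 2709, 2743 and 2783 to 3655, 3381 and 3422 (log2 change 0.34, adjusted p = 0.000204). Pdcd4, known in mammals as an inhibitor of eIF4A, went from 3850, 3811 and 3905 to 4726, 4902 and 4673 (log2 change 0.31, adjusted p = 0.000194). All 3 kept their calls after quantile and cyclic loess normalization and without any 1 array, and those of Lk6 and Pdcd4 were lost with each array centred on its median (adjusted p = 0.124 and 0.202). For larp, whose product binds mRNAs of the translation machinery, the brightest probe set rose by a log2 change of 0.72 (562, 468 and 565 against 886, 876 and 854, adjusted p = 4.97e-05), while its other probe sets had changes of -0.04 and -0.33 that did not pass. The poly(A)-binding protein gene pAbp itself had a change of -0.0032 with a 95% interval of -0.08 to 0.08. Thor, the 4E-BP gene, and cup have no probe set with exactly 1 gene in the annotation and were not analysed here. The paper lists Thor among the genes raised by PA on its arrays, and reports a rise of 4E-BP by qRT-PCR.

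**Figure D4:**
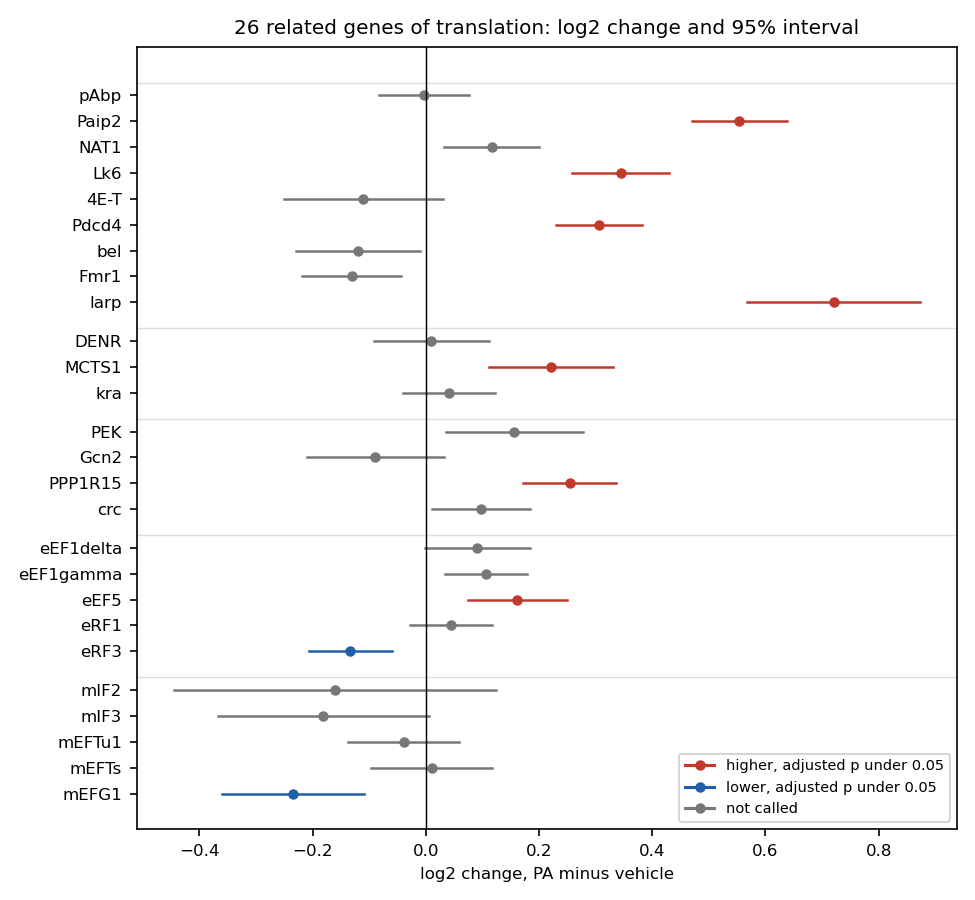
Log2 change (PA minus vehicle, x axis) with its 95% interval for 26 genes that act with the initiation factors (y axis; from top to bottom cap and scaffold partners, recycling and start codon partners, eIF2 kinases with phosphatase subunit and ATF4, elongation and termination factors, mitochondrial factors). The dim eEF1alpha2 is left out, and larp, Paip2, Lk6 and Pdcd4 stand farthest to the right, at 0.31 to 0.72.

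Around eIF2 and in the later steps of translation, the called changes lay between -0.23 and 0.25 on the log2 scale. PPP1R15, which guides a phosphatase to eIF2alpha, rose (log2 change 0.25, adjusted p = 0.00211) and kept its call without any 1 array, though not with each array centred on its median (adjusted p = 0.324), while the kinase genes PEK (0.16, adjusted p = 0.146) and Gcn2 (-0.09, adjusted p = 0.492) and the ATF4 gene crc (0.10, adjusted p = 0.218) did not pass. Of 3 measured recycling and start codon partners MCTS1, which acts with DENR in reinitiation, alone passed (log2 change 0.22, adjusted p = 0.023). Its call was kept after quantile normalization (adjusted p = 0.0101) and lost with each array centred on its median (log2 change 0.14, adjusted p = 0.512), and of the fits without 1 array it was kept in that without vehicle replicate 3. Of 6 measured elongation and termination factors eEF5, which helps stalled ribosomes form peptide bonds, rose, by a log2 change of 0.16 (adjusted p = 0.0355) that was 0.0071 after quantile normalization, a call kept without vehicle replicate 3 or PA replicate 3 alone. The release factor gene eRF3 fell by 0.13 on that scale (adjusted p = 0.039, or 0.0081 after quantile normalization). That call was lost with median centring (adjusted p = 0.221), with the 75th percentile of every array set equal (log2 change -0.05, adjusted p = 0.601) and whichever array was left out. The dim eEF1alpha2, with signals of 12.4 to 39.8, had a log2 change of 0.44 (standard error 0.48, adjusted p = 0.742). Of 5 mitochondrial factors the translocase gene mEFG1 alone passed, at a log2 change of -0.23 (adjusted p = 0.0319, or 0.162 after quantile normalization), and this call was kept without vehicle replicate 2 alone. Over all probe sets 2.29% were called higher and 2.82% lower, and these lists too were chosen with earlier results known. In the brightness ranges of eEF5, PPP1R15 and MCTS1, 28.1%, 5.33% and 2.77% of all probe sets were called higher. In those of mEFG1 and eRF3, 11% and 2.02% were called lower.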

How the data were processed

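RNA of 3 PA and 3 vehicle samples was measured on 6 arrays. The deposited values are linear signal intensities that the authors made with MAS5, and their mean after trimming 2% at each end was 500.01 on every array. The software version was not given in the sources used here. The table held 18952 probe sets. After removal of 183 controls, log2 signals of the other 18769 were fitted in R 4.3.3 with limma 3.58.1 (lmFit, then eBayes whose prior variance follows the mean signal), with Benjamini-Hochberg adjustment over all 18769 and a call at an adjusted p under 0.05. The number of arrays limits the precision, and intervals and standard errors are those of this fit.

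The array annotation gave 13647 probe sets 1 gene, 402 several and 4720 none, and 13544 of the first were brought to current symbols by gene identifier through a RefSeq gene table. The 40 measured genes have 44 such probe sets. Signals on all arrays are given for each initiation factor past the threshold, for eIF4E1, eIF4A and eIF4G1, and for the factor of smallest p in a class with none past it, beside eIF3a, which was chosen after its values were seen. Related genes came in 5 lists (cap and scaffold partners, recycling and start codon partners, eIF2 kinases with phosphatase subunit and ATF4, elongation and termination factors, mitochondrial factors), each with values for up to 4 genes of smallest p, and markers in 5 lists (hemocytes, testis and germline, neurons, muscle, fat body). The genes and lists were chosen with earlier results of these data known. Alternatives were 4 other scalings, offsets of 16 and 64, a filter on signal, other variance models, array weights, the number in the titles as a block, the methods' t-test, another choice of probe set and leaving out each array. Counts by brightness and over the brighter genes alone were added after the data were seen.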

Additional observations from a re-analysis of the deposited data

How the results depend on the processing

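The direction and calls of the small changes depended on the scaling. With each array centred on its median, 0 initiation factors were called higher and 1 lower, their median log2 change was -0.0215, and 58 probe sets were called higher and 350 lower. With the 75th percentile these values were 13, 0, 0.14, 988 and 211. Quantile normalization gave 0 and 0 with a median of 0.0262, and 238 and 266 probe sets. Cyclic loess normalization gave 0 and 0, and 248 and 269 probe sets. The median of all probe sets was -0.09 with median centring and 0.07 with the 75th percentile. The changes of eIF2A and eIF5 turned to -0.0209 and -0.0255 with median centring. That of eIF4A turned to -0.0155 and -0.0045 after quantile and loess normalization. Those of eIF4G1 and eIF6 turned to 0.0064 and 0.0578 with the 75th percentile, and those of eIF3a, eIF3b and eIF3c to 0.063, 0.0555 and 0.0663. The direction also turned under some scaling for eIF2Bgamma, eIF2Bdelta, eIF2Bepsilon, eIF2D, eIF3j, eIF4B, eIF4E6 and eIF5B.

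An offset of 16 left 0 factors and 270 probe sets higher, and an offset of 64 left 0 factors higher and 225 and 314 probe sets. Testing only the upper 50% of signal, and so fewer probe sets, gave 10 factors higher and 2 lower. Of the 9384 probe sets then tested, 582 were called higher and 729 lower. Without the trend of the variance 0 and 0 factors and 7 and 0 probe sets passed. An unadjusted p under 0.05 there gave 1 and 2 factors and 776 and 1050 probe sets. The methods' t-test, run on log2 signals, gave 12 factors higher and 1234 and 1460 probe sets at p under 0.05. After adjustment it gave 0 and 0 factors and 29 and 9 probe sets. The cut on fold change that the paper's list of genes also used was not applied here. The causes of these shifts were not tested. Robust variances, array weights, another choice of probe set and counting the brighter genes alone left the counts of factors within 1.5 times.

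When 1 array was left out, 0 to 4 factors were called higher and 0 to 2 lower, with medians of 0.0563 to 0.0829, and 196 to 402 probe sets were called higher and 262 to 412 lower. Calls of higher factors were made only without vehicle replicate 3. The replicate block on the number in the titles called 2 factors higher (eIF3d1 and eIF3l) and 2 lower, beside 386 and 557 of all probe sets. Over all probe sets tested, deviations of same-numbered arrays had correlations of -0.001146, 0.019 and -0.001558, and only those numbered 2 correlated best with each other. Dim probe sets weigh most in these correlations. The median standard error was 0.89 in the lower 50% of signal and 0.04 above the 95th percentile. Shared deviations among the bright probe sets alone were not tested. The labels do not give the numbers as pairs, and the main fit did not take them as pairs.

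Signal limits the 9 dimmer genes, whose intervals were up to 4.03 wide on the log2 scale.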
